A study of Mus musculus with 11 samples.

Results

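The comparison described here is that of M1 macrophages with M0 macrophages, on 8 of the 11 arrays of the series. The 3 arrays titled M1 macrophage (replicates 1 to 3) were set against the 5 arrays titled M0 macrophage (replicates 1 to 5), for all 18193 genes that the array's probe sets name singly. Every group came from the bone marrow of Rag1-/- C57BL/6 mice aged 7 weeks, which lack mature B and T cells, and was kept 7 days in culture. M0 cells received no cytokines. M1 cells received IFN-g, with LPS, a cell wall component of Gram-negative bacteria, over the last 24 h. The other 3 arrays, M2a, came from cells given IL-4 and IL-13. In all groups, cells positive for the macrophage surface protein F4/80 were sorted, and total RNA from them was measured on Affymetrix arrays. The labels do not say whether replicates came from separate mice or cultures, so the p-values rest on a spread between arrays that could be technical.

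Interferon-gamma binds a receptor that works through the kinases JAK1 and JAK2, and it is the classical cytokine by which T and NK cells activate macrophages. LPS is sensed by TLR4 with its partners MD-2 and CD14, and signals through MyD88 to NF-kB and AP-1 factors and through TRIF to IRF3 and interferon-beta. Macrophages given both are known for antigen presentation, killing of intracellular microbes, inflammatory cytokines and a metabolism that leans on glycolysis, and are called M1 or classically activated.

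Values are the deposited log2 values of probe sets, 1 probe set per gene, and a difference of 1 is a factor of 2. A gene was called when limma's Benjamini-Hochberg adjusted p over the 18193 genes was under 0.05 and the difference between M1 and M0 was at least 2-fold. "Rose" and "fell" are used only of called genes, with the SE of the limma fit behind a difference, and genes that were not called are given by their values. The median gene lay at 5.96 in M0.

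Macrophage markers were high in every array, and in M0 so were granulocyte markers. The mean log2 level of 14 macrophage markers was 11.03 to 11.68 in the M0 arrays and 12.16 to 12.18 in the M1 arrays, and Lyz2, Csf1r and Adgre1 (which encodes F4/80) stood at 13.95 to 14.17, 12.91 to 13.40 and 10.78 to 11.59 in M0 and at 14.05 to 14.08, 13.45 to 13.48 and 12.37 to 12.49 in M1. Of the 14 markers, 6 were called higher in M1 (42.9%, against 6.27% of all genes) and 1 lower (7.14%, against 6.41%). In the fit with the hybridization covariate none was called higher. In M0 array 1 the lists of neutrophil primary granule genes (11.28) and secondary granule genes (11.49) stood above the macrophage list (11.03), and the granulocyte genes S100a9, Ngp and Prg2 averaged 14.11, 13.57 and 12.53 over the M0 arrays. The array medians ran from 5.14 to 5.34. Array-to-array correlations across genes were 0.956 to 0.995 within M0 and 0.997 to 0.998 within M1, and the SD of the median gene was 0.24 among M0 and 0.08 among M1 arrays. For all probe sets, averaging M0 arrays 1 to 3 gave the same value as averaging M0 arrays 4 and 5 to within 8.3e-05, which means that fewer than 5 of these arrays are independent of each other. The first principal component of the 8 arrays held 77.1% of the variance and parted M0 from M1, and on the second, which held 15.7%, M0 arrays 1 and 4 lay apart from the other M0 arrays. Control probe sets differed between the groups. The spiked polyA controls averaged 9.62 ± 0.50 (SD, n = 5) in M0, 5.62 ± 0.05 (SD, n = 3) in M1 and 6.40 in M2a, and the 18S ribosomal RNA probe sets 9.25 ± 0.27, 6.25 ± 0.08 and 8.56. The hybridization controls averaged 11.15 ± 0.52 (SD, n = 5) in M0 and 9.71 ± 0.06 (SD, n = 3) in M1, and the actin controls' 5'-3' difference averaged -0.61 ± 0.47 (SD, n = 5) and 0.15 ± 0.02 (SD, n = 3). That of the Gapdh controls averaged -0.37 ± 0.60 and 0.57 ± 0.03. The part of the polyA, 18S and Gapdh differences in the results was not tested. The hybridization controls and the actin difference were each taken as a covariate, and the counts that these fits move most are given with the results or after the lists.

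Genes of the sex chromosomes differed between the groups, and the labels give no sex. Xist, the RNA that silences an X chromosome, stood at 11.96, 11.90, 11.77, 11.74 and 12.01 in the M0 arrays and at 5.37, 5.98 and 5.57 in the M1 arrays. Eif2s3y, a Y-linked translation factor gene, stood at 2.36 to 3.02 in the M0 arrays and 8.48 to 8.87 in those of M1, and the Y-linked genes Kdm5d (2.34 to 2.85 and 5.61 to 6.00) and Uty (3.76 to 4.28 and 5.84 to 5.99) were likewise higher in every M1 array than in any M0 array. Kdm6a, which escapes X inactivation, stood at 8.70 to 8.84 in the M0 arrays and 7.66 to 7.78 in those of M1. In M2a, given IL-4 and IL-13, Eif2s3y stood at 8.48 to 8.96 and Kdm5d at 6.27 to 6.90, also above every M0 array. High levels of these Y-linked genes were thus not particular to M1. Xist stood at 5.58 and 5.81 in M2a arrays 1 and 2. In M2a array 3 Xist lay closer to the M0 arrays, with Eif2s3y at 8.48. Among the M0 and M1 arrays the cytokine treatment and the sex-linked pattern cannot be told apart. No array of M0 had the M1 pattern and no array of M1 had that of M0. The part of the sex of the source mice in the differences between M1 and M0, for these and all other genes, was not tested.

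Sequence before the start site is shown for 4 of the 15 genes that rose most, because their promoters hold short sequences that interferon and LPS signalling are known to use: the chemokine genes Cxcl9 and Cxcl10, which lie close together on chromosome 5, the GTPase gene Gbp2 and the Ras activator gene Rasgrp1. Motifs were searched on both strands as GAAANNGAA (core of the interferon-stimulated response element, which IRF factors bind), TTCNNNGAA (core of the GAS element), GGGANTTTC (a narrow form of the kB core) and TGANTCA (AP-1). The letters that match any of them are in capitals. Other forms of these elements were not searched, so letters in lower case may still hold them. The 250 bases before the start are printed 5′ to 3′ on the strand of the gene, from RefSeq's GRCm38.p6 annotation.
Cxcl9, minus strand of chr5:92328080-92328329: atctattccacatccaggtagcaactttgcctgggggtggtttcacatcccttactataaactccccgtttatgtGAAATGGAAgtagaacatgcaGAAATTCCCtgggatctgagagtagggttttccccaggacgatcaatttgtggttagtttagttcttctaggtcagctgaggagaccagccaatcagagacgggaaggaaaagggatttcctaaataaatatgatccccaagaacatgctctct
Cxcl10, minus strand of chr5:92348890-92349139: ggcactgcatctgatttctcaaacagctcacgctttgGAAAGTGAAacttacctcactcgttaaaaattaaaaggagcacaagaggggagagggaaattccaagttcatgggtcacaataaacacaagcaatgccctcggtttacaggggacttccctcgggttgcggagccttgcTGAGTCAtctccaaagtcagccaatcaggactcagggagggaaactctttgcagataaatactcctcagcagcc
Gbp2, plus strand of chr3:142620413-142620662: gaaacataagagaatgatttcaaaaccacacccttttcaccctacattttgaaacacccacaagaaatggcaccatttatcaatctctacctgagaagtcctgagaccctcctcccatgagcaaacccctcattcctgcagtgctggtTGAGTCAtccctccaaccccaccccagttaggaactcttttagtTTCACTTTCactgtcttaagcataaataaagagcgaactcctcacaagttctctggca
Rasgrp1, minus strand of chr2:117342878-117343127: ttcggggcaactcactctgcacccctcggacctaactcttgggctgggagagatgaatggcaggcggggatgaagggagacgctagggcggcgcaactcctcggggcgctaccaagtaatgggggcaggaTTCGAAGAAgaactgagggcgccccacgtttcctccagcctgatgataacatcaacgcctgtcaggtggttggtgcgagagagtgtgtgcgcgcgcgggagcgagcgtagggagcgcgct
In Cxcl9 the capitals mark the response element core from position -175 and the kB core, on the other strand, from -154. In Cxcl10 they mark the response element core from -213 and an AP-1 sequence from -74, in Gbp2 an AP-1 sequence from -102 and the response element core, on the other strand, from -58, and in Rasgrp1 a GAS core from -120. RefSeq windows of 300 bases, from 250 before to 50 after the start, were at hand for 14452 of the measured genes, 18109 windows in all. The response element core was in 7.37% of all these windows, in 10.9% of the 1183 windows of genes called higher in M1, in 22.6% of the 124 windows of genes that rose at least 8-fold, and in 8.09% of the 1199 windows of genes called lower. For the GAS core the same shares were 7.21%, 8.62%, 11.3% and 7.42%, for the kB core 1.07%, 1.35%, 7.26% and 1.33%, and for AP-1 6.38%, 7.44%, 19.4% and 7.26%. In the 11 windows of the 15 largest rises the response element, GAS, kB and AP-1 shares were 45.5%, 9.09%, 18.2% and 36.4%. In the 13 windows of the 15 largest falls they were 15.4%, 23.1%, 0.0% and 23.1%. The windows of Marco and Eif2s3y, also among the 15 largest rises, held none of these motifs. These matches are descriptions of the letters in the windows and do not show that a factor binds there.

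M1 macrophages differed from M0 macrophages by at least 2-fold in 2306 of the 18193 genes, 12.7% of those tested, and rises and falls were about equally many. Of all genes, 1140 (6.27%) rose and 1166 (6.41%) fell, and these shares are the background for the count of every gene list in this report. The changes reached far beyond 2-fold, with 142 genes up and 155 down at least 8-fold and 31 up and 29 down at least 32-fold. Of the 2306 called genes, 2268 had no overlap between the M1 and the M0 arrays, as had 7298 of all 18193 genes. A second probe set existed for 1324 called genes; for 673 of these (50.8%) a second probe set was called the same way and for 10 one was called the opposite way. The balance depended on the M0 arrays used and on the control covariates: 802 rose and 1176 fell without M0 arrays 1 and 4, 1412 rose and 1208 fell without M0 array 5, 1001 rose and 2111 fell in the fit with the hybridization covariate, and 706 rose and 1311 fell with the actin 5'-3' difference.

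**Figure D1:**
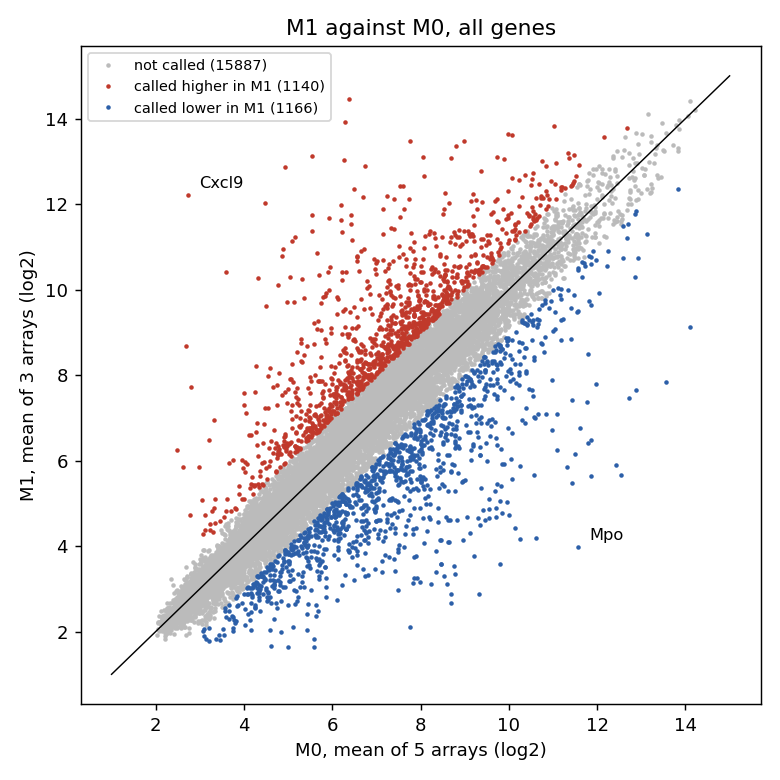
Mean log2 value of each of the 18193 genes in M0 (5 arrays, x axis) and in M1 (3 arrays, y axis); red points are the 1140 genes called higher in M1, blue points the 1166 called lower, grey points genes not called, and the line marks equal means. Cxcl9 lies farthest above the line, at 2.73 in M0 and 12.21 in M1, and Mpo farthest below it, at 11.57 and 3.97.

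The rises were led by secreted immune proteins and by interferon-induced genes. Cxcl9, a chemokine that draws activated T cells through CXCR3, stood at 2.94, 2.61, 2.65, 2.80 and 2.67 in the M0 arrays and at 12.09, 12.33 and 12.23 in the M1 arrays. In all 5 M0 arrays it lay near the bottom of the scale and in all 3 M1 arrays near the top. The difference was 9.48 ± 0.10 (SE), a 715-fold rise (limma adjusted p = 1.7e-13). Saa3, an acute-phase protein, stood at 5.95 to 6.78 in M0 and at 14.41, 14.49 and 14.46 in M1, the highest mean of any gene in M1, and rose by 8.06 ± 0.15. Cfb, factor B of the alternative complement pathway, rose by 7.93 ± 0.13, the chemokine Ccl5 by 7.63 ± 0.17, the guanylate-binding protein Gbp2 by 7.57 ± 0.26, and the surface protein Ly6i by 7.55 ± 0.10. Ubd, a ubiquitin-like protein also called FAT10, rose by 6.83 ± 0.14.

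Less familiar members of the leading rises were membrane proteins and a signalling protein. Marco, a scavenger receptor for bacteria, stood at 4.90, 6.70, 7.18, 5.93 and 6.59 in M0 and at 13.05, 13.01 and 13.04 in M1. Its M0 values spread over more than 2 log2 units, with array 1 lowest, while the M1 arrays lay at 13.01 to 13.05. Procr, the endothelial protein C receptor, rose by 6.15 ± 0.33, Plpp1, a lipid phosphate phosphatase, by 6.06 ± 0.40, and Rasgrp1, which activates Ras and is best known from T cells, by 5.95 ± 0.10. Rasgrp1 was at 4.06 to 4.48 in the M0 arrays and 10.24 to 10.31 in those of M1, without overlap. Gbp3, Cxcl10, Gbp8 and the Y-linked Eif2s3y completed the 15 largest rises, with differences of 6.20, 6.09, 6.06 and 6.01.

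The falls were led by genes of granulocytes and their precursors. Mpo, the myeloperoxidase of neutrophil primary granules, stood at 13.10, 11.40, 10.23, 12.07 and 11.08 in M0 and at 3.78, 4.12 and 4.01 in M1. In M0 it was highest in array 1 and lowest in array 3, and low in every M1 array. It fell by 7.61 ± 0.48 (SE), a 195-fold difference (limma adjusted p = 2.5e-07). Prg2, the major basic protein of eosinophils, fell by 6.86 ± 0.22, Ltf, the lactoferrin of neutrophil secondary granules, by 6.53 ± 0.27, and Prtn3, Ngp, Ctsg and Olfm4, further neutrophil granule genes, by 5.97, 5.73, 5.72 and 5.48. Myb, a transcription factor of blood progenitors, fell by 6.20 ± 0.43 and the platelet chemokine Ppbp by 6.10 ± 0.25.

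Other leading falls were not granule genes. Hpgd, the enzyme that inactivates prostaglandin E2, stood at 10.07 to 11.12 in M0 and at 4.26, 4.29 and 3.99 in M1 and fell by 6.43 ± 0.33. Serpinb2, an inhibitor of plasminogen activators, fell by 6.44 ± 0.52, Rgs18, a regulator of G protein signalling, by 6.02 ± 0.19, and Arap3, a GTPase-activating protein, by 5.81 ± 0.17. Rgs18 was at 8.28 to 9.13 in M0, 2.50 to 2.93 in M1 and 8.01 to 8.16 in M2a. Bex1, a small protein best known from neurons, stood at 6.20 to 9.33 in M0, 1.96 to 2.25 in M1 and 12.25 to 12.42 in M2a, and Xist, given above, completed the 15 largest falls.

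**Figure D2:**
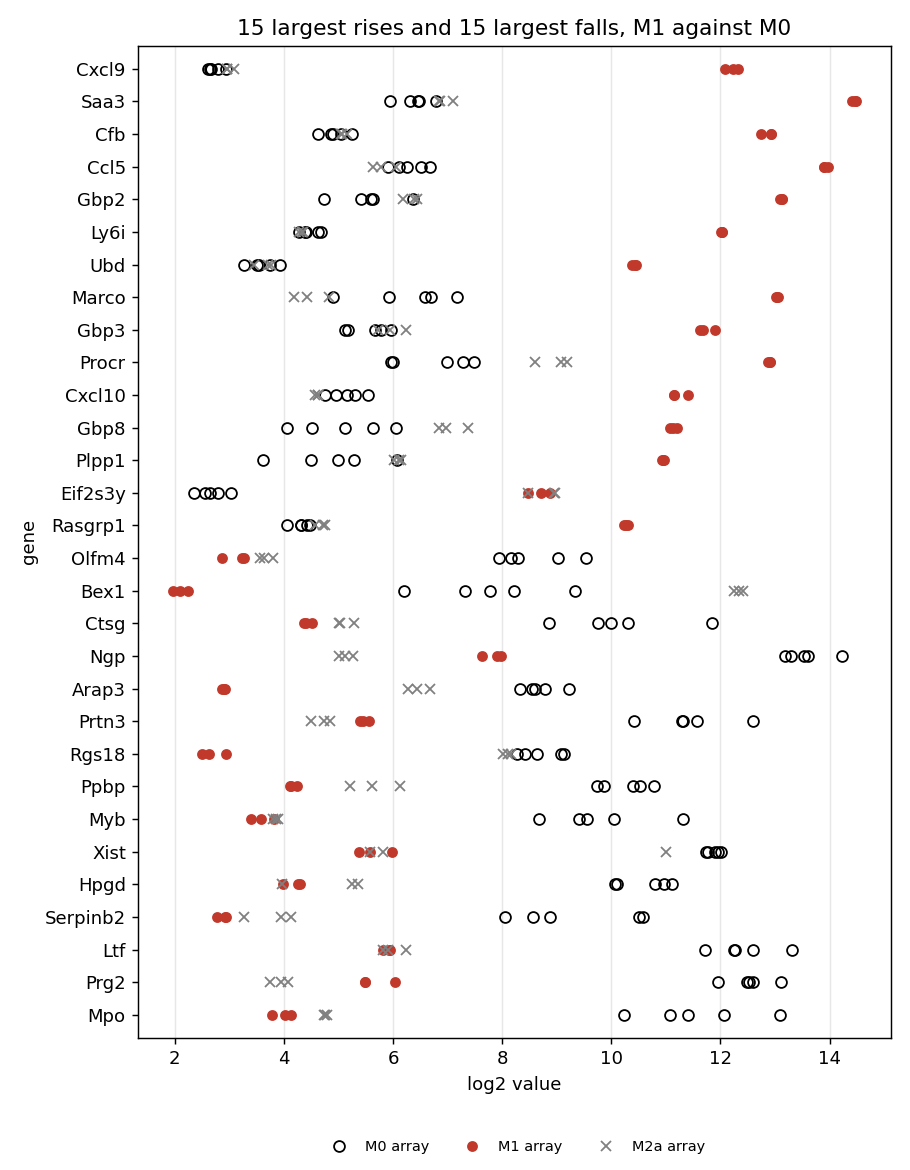
Log2 value of the 15 genes that rose most and the 15 that fell most in M1 against M0, 1 row per gene, with M0 arrays as open circles, M1 arrays as filled red circles and M2a arrays as grey crosses. No gene shown has overlapping M0 and M1 arrays; Marco in M0 spans 4.90 to 7.18 while its 3 M1 arrays lie at 13.01 to 13.05.

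Markers of granulocytes, progenitors and megakaryocytes fell in M1, and several of the leading falls above are members of these marker lists. All 7 measured genes of neutrophil precursors and primary granules fell, as did 11 of 13 secondary and tertiary granule genes, 14 of 17 eosinophil, basophil and mast cell genes, 6 of 9 progenitor genes and 5 of 7 megakaryocyte genes, against 6.41% of all genes. The mean log2 level of the primary granule list was 8.66 to 11.28 in the M0 arrays, highest in array 1, and 4.95 to 5.04 in the M1 arrays. The secondary granule list stood at 10.35 to 11.49 and 7.71 to 7.81, the eosinophil, basophil and mast cell list at 6.46 to 7.90 and 4.24 to 4.27, and the megakaryocyte list at 8.09 to 8.66 and 5.69 to 5.80. On these lists the M2a arrays also lay below every M0 array, so levels lower than in M0 were not particular to M1. In M2a the primary and secondary granule lists stood at 5.09 to 5.26 and 5.95 to 6.11. The eosinophil, basophil and mast cell list stood there at 4.66 to 4.76 and the megakaryocyte list at 6.90 to 7.16. Epx and Siglecf, which define eosinophils, averaged 7.90 and 7.85 in M0 and 3.76 and 3.74 in M1, and the mast cell and basophil genes Cpa3 and Mcpt8 averaged 8.63 and 8.36 in M0 and 4.10 and 3.89 in M1. No probe set is at 0 on this array. The mast cell protease genes Cma1 and Mcpt4 were low in both groups (4.81 and 4.69 in M0, 5.16 and 4.76 in M1). In bulk RNA, fewer cells of a type and less RNA per cell cannot be told apart. In the fit with the hybridization covariate, 4 of the 7 primary granule genes, 9 of the 17 eosinophil, basophil and mast cell genes and 3 of the 9 progenitor genes were called lower.

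Not every granulocyte gene moved that way. Lcn2, lipocalin 2, an iron-binding protein of neutrophil granules that macrophages also make, stood at 13.15, 11.73, 12.47, 12.68 and 12.22 in M0 and at 12.62, 12.65 and 12.68 in M1, and was at 3.68 to 4.23 in M2a. The groups M0 and M1 overlapped, with a difference of 0.20 ± 0.26 (adjusted p = 0.56). S100a9 and S100a8, which pair to form calprotectin, fell from 14.11 and 13.84 to 9.13 and 12.35. Csf3r, the receptor for G-CSF, stood at a mean of 9.95 in M0 and 9.17 in M1, under the fold minimum. Of the other marker lists, that of dendritic cells had 1 rise of 11 (Bst2, which interferon induces in many cells), that of T and NK cells 1 fall of 12 (Nkg7), that of erythroid cells no call of 8, that of endothelium 1 fall of 10 (Vwf) and that of stroma 1 rise (Lox, a collagen cross-linking enzyme, from 6.97 to 10.49) and 1 fall (Acta2, lost when probe sets ending in _x_at or _s_at were left out) of 14. Among 11 B cell genes 4 fell (Ebf1, Ighm, Cd79b and Ms4a1) and 1 rose: Rag1, the gene disrupted in these mice, lay between 3.32 and 3.76 in M0 and between 4.67 and 4.99 in M1, in both groups below the level of the median gene. The monocyte list had 1 rise of 8, Treml4 (lost without M0 array 1 or 4), and 2 falls, Plac8 and F13a1.

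**Figure D3:**
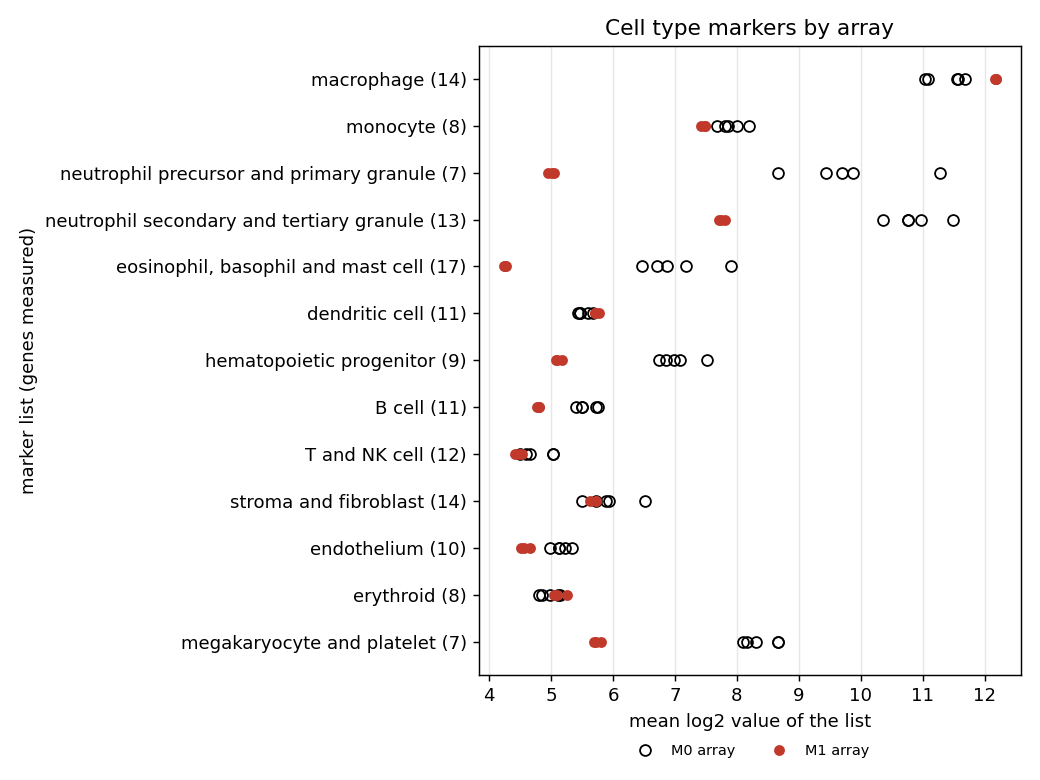
Mean log2 value of each list of cell type markers in each array, with M0 arrays as open circles and M1 arrays as filled red circles; the number of measured genes stands beside each list name. The macrophage list is higher in the 3 M1 arrays (12.16 to 12.18) than in the 5 M0 arrays (11.03 to 11.68), and the granulocyte, progenitor and megakaryocyte lists are lower.

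Of 25 measured genes of cytokine receptors and JAK-STAT signalling 4 rose (16.0%, against 6.27% of all genes) and 2 fell. Ifnar2, a chain of the type I interferon receptor, rose from 10.29 ± 0.31 (SD, n = 5) to 12.17 ± 0.11 (SD, n = 3), Jak2 from 8.59 to 10.46, and Stat2 and Il4ra also rose. The 2 falls were Il6ra, from 8.50 to 5.77, and Stat4, from 5.82 to 3.93. The interferon-gamma receptor chains Ifngr1 (10.09 in M0, 9.38 in M1) and Ifngr2 (8.65 and 9.15), Jak1 (9.72 and 9.75) and the phosphatase Ptpn1 (10.49 and 11.25) were not called.

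Among 8 interferon regulatory factors 2 rose. Irf7, which amplifies type I interferon responses, stood at 7.27 to 7.63 in the M0 arrays and 11.18 to 11.56 in those of M1 and rose by 4.03 ± 0.12. Irf1, an early interferon-response factor, stood at 9.10 to 9.16 in the M0 arrays and 12.02 to 12.16 in those of M1 and rose by 2.93 ± 0.09. Irf8, which is needed for the macrophage lineage, was at 9.40 in M0 and 10.12 in M1, and Irf5 at 8.44 and 9.40. Neither reached the fold minimum. The arrays of all 8 factors did not overlap between the groups, which held for 7298 of all 18193 genes.

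All 13 measured interferon-induced GTPases rose, against 6.27% of all genes, with a median difference of 4.46 against 0.06 over all genes. The guanylate-binding proteins and immunity-related GTPases among them attack the vacuoles of intracellular microbes. Gbp2 stood at 5.41, 5.60, 5.64, 4.74 and 6.36 in M0 and at 13.09, 13.13 and 13.13 in M1. Gbp8, Gbp6 and Iigp1 rose from means of 5.08, 4.85 and 6.49 to 11.13, 10.78 and 12.35, and Igtp and Irgm1 from 8.08 and 7.63 to 12.65 and 11.89. The smallest rises were those of Mx2, from 5.38 to 6.96, and Gbp2b, from 4.20 to 5.44, which remained below the median gene.

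Of 38 measured antiviral effectors 28 rose (73.7%, against 6.27% of all genes) and 3 fell (7.89%, against 6.41%). Ifit1, which binds viral RNA caps, stood at 5.22 to 6.45 in the M0 arrays and 11.66 to 11.69 in those of M1 and rose by 5.75 ± 0.27, and Ifit2 rose by 4.83 ± 0.26. Oasl1, Oasl2, Xaf1, Rsad2 (viperin) and Cmpk2 rose by at least 8-fold. In the Schlafen family Slfn1, Slfn5 and Slfn8 rose, Slfn4 fell from 8.02 to 5.57, and Slfn2, at 10.89 in M0 and 11.20 in M1, was not called. In the Ifitm family, membrane proteins that block virus entry, Ifitm3 rose from 11.34 to 13.20 and Ifitm2 from 9.74 to 11.18, while Ifitm6 fell from 10.06 to 5.56 and Ifitm1 from 9.45 to 8.12; the fall of Ifitm1 was lost without M0 arrays 1 and 4.

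Of 18 sensors of nucleic acids 10 rose and 2 fell. Zbp1, a sensor of Z-form nucleic acids that can start necroptosis, rose from 6.71 to 10.94 and Ifi204, a DNA-binding member of the p200 family, from 6.85 to 9.90. Dhx58 and Ifih1, RNA sensors of the RIG-I family, rose from 6.59 and 7.92 to 9.15 and 10.25. The endosomal receptors did not move together: Tlr3 rose from 5.41 to 7.09, a rise lost with either control covariate, Tlr13 fell from 9.94 to 8.86, a fall lost without M0 array 3 or 5, and Tlr7, at 8.44 and 8.90, was not called. Cgas, the sensor of cytosolic DNA, was at 7.84 in M0 and 7.54 in M1. The count of rises was 5 with the hybridization controls and 6 with the actin difference as a covariate.

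Antigen presentation genes rose in both classes without a call in the other direction. In class I, 11 of 17 genes of peptide processing and loading rose and none fell. Nlrc5, the transactivator of class I genes, rose from 6.99 ± 0.62 (SD, n = 5) to 10.37 ± 0.05 (SD, n = 3), the peptide transporter subunit Tap1 from 7.75 ± 0.11 to 10.97 ± 0.05, and the immunoproteasome subunits Psmb9, Psmb10 and Psmb8 from 9.09, 9.64 and 10.51 to 11.31, 11.81 and 12.44. B2m and the class I heavy chains H2-D1 and H2-K1, already at 13.15, 13.01 and 12.88 in M0, were at 14.10, 13.65 and 13.66 in M1 and did not reach the fold minimum.

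Constitutive subunits of the proteasome core rose in 5 of 14 cases. Psmb7, whose place in the core the immunoproteasome subunit Psmb10 takes, stood at 6.00 to 8.32 in the M0 arrays and 10.57 to 10.78 in those of M1. Psma5 rose from 10.55 to 11.69, and Psma3, at 11.02 and 11.84, was not called. Without M0 arrays 1 and 4 the count was 2, it was 2 without M0 array 4 alone, and it was 1 with either control covariate.

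In class II, 10 of 16 genes rose and none fell. Cd74, the invariant chain, stood at 7.88, 8.33, 7.95, 8.03 and 8.07 in M0 and at 13.04, 13.16 and 13.10 in M1, without overlap, and rose by 5.05 ± 0.13, which is 33.1-fold. The class II chains H2-Eb1, H2-Ab1 and H2-Aa rose by 4.55, 4.49 and 3.66 to levels of 13.36, 13.47 and 13.65. Ciita, the master transactivator of class II, moved less, from 4.90 to 6.31, and the editing chains H2-DMa and H2-Oa rose from 8.20 and 5.60 to 11.31 and 8.0. Marchf1, a ubiquitin ligase that removes class II from the surface, also rose, from 6.57 to 10.78. Ctss, the protease that cuts the invariant chain, was at 13.47 and 13.90.

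Ligands that T cells see beside the antigen rose in 13 of 26 cases and fell in 2. Slamf8 rose from 6.19 to 11.97, and Cd274 (PD-L1), an inhibitory ligand, from 7.53 ± 0.76 (SD, n = 5) to 12.42 ± 0.02 (SD, n = 3). Cd40 rose from 5.84 to 8.84, Icam1, the ligand of LFA-1, from 7.26 to 10.50, and Pdcd1lg2 (PD-L2) from 4.54 to 7.23. Cd86 rose by 1.0 ± 0.18, at the fold minimum, and lost the call when any of 3 single arrays (M0 array 1, M0 array 4 or M1 array 2) was left out. Cd80 was at 5.19 and 5.30 and was not called. Cd83 fell from 7.91 to 6.13 and Havcr2 (TIM-3) from 5.19 to 3.83.

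Of 26 measured chemokines 4 rose (15.4%, against 6.27% of all genes) and 5 fell (19.2%, against 6.41%). The rises were those of the CXCR3 ligands Cxcl9 and Cxcl10, of Ccl5 and of Cxcl16. Cxcl10 stood at 4.76 to 5.54 in the M0 arrays and 11.15 to 11.41 in those of M1, and Ccl5 at 5.90 to 6.68 and 13.89 to 13.97, whereas Cxcl11, the third CXCR3 ligand, was at 4.28 and 4.82 and was not called. Ccl6 fell from 12.72 ± 0.12 (SD, n = 5) to 7.46 ± 0.10 (SD, n = 3) and Ccl9 from 10.81 to 8.89. Ppbp and Pf4, chemokines of platelets that macrophages can also make, fell from 10.26 and 11.78 to 4.16 and 7.37. Both are members of the megakaryocyte list given above and count among its falls. Cxcl2 (8.66 and 9.13) and Cxcl1 (6.86 and 7.75), which attract neutrophils, and Ccl2 (7.01 and 7.39), which attracts monocytes, were not called. Ccl3, also not called, was at 10.33 in M0 and 9.36 in M1.

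Receptors for chemoattractants rose in 3 of 19 cases and fell in 6. Cmklr1, the chemerin receptor, rose from 6.12 to 9.77, Ccrl2, a chemerin-binding receptor that does not signal, from 7.23 to 10.05, and Fpr2, a receptor for formyl peptides and serum amyloid A, from 10.55 to 12.73. Ccr3, the eotaxin receptor of eosinophils, stood at 8.68, 6.60, 7.19, 5.73 and 9.26 in M0 and at 2.92, 2.99 and 3.04 in M1. Cxcr2 and Ltb4r1, which neutrophils carry, fell by 2.98 and 1.72, Ccr1 by 2.65 and Cxcr4 by 1.47. C3ar1, the receptor of complement C3a, was at 10.20 and 10.51. Ccr3, Cxcr2 and Ltb4r1 are themselves members of the granulocyte marker lists given above. The part of granulocytes in these falls was not tested.

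Cytokine genes rose in 11 of 31 cases and fell in 5. Il1b stood at 7.37, 7.47, 7.78, 7.41 and 7.67 in M0 and at 11.63, 11.62 and 11.82 in M1 and rose by 4.15 ± 0.16. Il1a rose from 5.66 to 9.08, Il6 from 4.00 to 7.31, Tnf from 7.30 to 9.94 and the anti-inflammatory Il10 from 4.11 to 6.59. The subunits of IL-12, Il12b and Il12a, rose from 3.89 and 5.01 to 5.41 and 6.15, so that Il12b remained under the median gene of 5.96, and the call of Il12a was lost without M1 array 3. Il23a (3.69 and 3.58), Ifnb1 (4.98 and 5.11) and Csf2 (3.76 and 3.95) were not called and were low in both groups. Il16 fell from 9.01 to 5.54, the lymphotoxin gene Ltb from 8.06 to 4.65 and Csf1, which encodes the macrophage growth factor M-CSF, from 8.85 to 5.70. Il15 was called lower, from 7.85 to 6.79, and lost the call without M0 array 5.

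In the LPS receptor complex the partner proteins rose and the signalling chain was not called. Of 23 Toll-like receptor and adaptor genes 7 rose (30.4%, against 6.27% of all genes) and 1 fell (4.35%, against 6.41%). Cd14 rose from 10.53 to 12.58 and Ly96 (MD-2) from 7.24 to 9.30, while Tlr4 itself was at 7.60 in M0 and 8.67 in M1 (adjusted p = 0.082). Nod1, a sensor of bacterial cell wall, rose from 7.87 to 10.25 and Tlr2 from 9.27 to 10.65. Lbp, which hands LPS to CD14, fell from 7.56 to 6.08. The adaptors Myd88, at 9.12 and 9.79, and Ticam1 (TRIF), at 6.82 and 6.70, were not called, nor was Ly86 (MD-1), at 11.22 and 10.27. The rises numbered 2 with the hybridization controls as a covariate, under which the calls of Cd14 and Ly96 were among those lost and the difference of Ly96 turned to -0.65 (adjusted p = 0.15).

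NF-kB and AP-1 factors rose in 6 of 18 cases. Batf2, an AP-1 partner, rose from 5.92 ± 0.16 (SD, n = 5) to 9.99 ± 0.03 (SD, n = 3). Relb, of the alternative NF-kB arm, rose from 6.07 to 8.20, and Bcl3 from 6.66 to 8.53. Rela (9.34 and 9.77), Jun (9.76 and 9.85) and Fos (12.04 and 11.48) were not called.

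Of 30 feedback inhibitors 12 rose and 1 fell. Socs1, which blocks JAK kinases, stood at 4.15 to 5.40 in the M0 arrays and 10.06 to 10.14 in those of M1 and rose by 5.33 ± 0.21. Socs3, which blocks signalling by the IL-6 receptor, rose by 5.10 ± 0.27 and Usp18, which blocks the type I interferon receptor, by 4.10. Il18bp, a decoy for IL-18, rose from 7.88 to 10.72, Tnfaip3 (A20) from 7.85 to 10.61, Nfkbie from 7.05 to 9.88 and Irak3 (IRAK-M) from 7.35 to 9.62. Socs2 went the other way, from 7.12 to 7.84 in M0 to 3.36 to 4.43 in M1, a fall of 3.57 ± 0.22. Nfkbia, already at 11.90 in M0, was at 12.69.

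Genes of inflammasomes and lytic cell death rose in 12 of 20 cases, and 1 fell. Mefv (pyrin) rose from 7.51 ± 0.08 (SD, n = 5) to 10.76 ± 0.11 (SD, n = 3), Casp4, the caspase-11 that senses LPS in the cytosol, from 7.44 to 10.09, Casp1 from 8.88 to 11.24, and Mlkl, the executor of necroptosis, from 7.22 to 9.91. Nlrp3 rose from 7.61 to 8.67 and Gsdmd from 8.96 to 9.98, the former lost with quantile normalization and the latter lost without M0 array 3 or M1 array 1. Gsdme, another gasdermin, fell from 7.50 to 5.04. Pycard (ASC) was at 10.45 and 10.83 and Ninj1, which ruptures the membrane of dying cells, at 12.10 and 12.82.

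In the BCL-2 family 1 of 15 genes rose and none fell, against 12.7% of all genes called in either direction. The rise was that of Bcl2l2, from 7.39 to 8.46, lost without M0 array 4. Mcl1, a survival factor, was at 11.59 and 12.48, and Bcl2l1 (BCL-XL) was at 8.10 and 8.06.

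Arginine metabolism showed rises on both of its branches. Of 18 genes 4 rose and none fell. Slc7a2, the importer of arginine, stood at 4.37, 6.34, 6.27, 5.58 and 5.74 in M0 and at 10.83, 10.80 and 10.92 in M1. Nos2, the inducible nitric oxide synthase, rose from 5.45 to 7.69 and Gch1, which makes its cofactor, from 7.25 to 9.57. Arg1, the arginase that competes for the same arginine and marks IL-4-treated macrophages, also rose, from 5.29 ± 0.33 (SD, n = 5) to 8.76 ± 0.05 (SD, n = 3). In M2a it stood at 12.97, and M1 was lower than M2a by 4.20 ± 0.20 (adjusted p = 2.2e-08). Ass1, which recycles citrulline to arginine, was at 4.49 and 5.24, and Oaz1, the ornithine decarboxylase antizyme, at 12.48 and 11.84; neither was called.

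Tryptophan, itaconate and NAD genes rose in 6 of 14 cases, and none fell. Acod1, which makes itaconate from an intermediate of the TCA cycle, stood at 7.52, 7.42, 8.28, 7.69 and 7.78 in M0 and at 12.16, 12.09 and 12.10 in M1. Kynu (kynureninase) rose from 4.27 to 8.21, Bst1 from 6.22 to 10.23 and Nampt, the rate-limiting enzyme of NAD salvage, from 9.39 to 12.06. Ido1, which opens the kynurenine pathway, was at 3.44 in M0 and 4.01 in M1, among the lowest genes, and was not called.

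Of 23 genes of glycolysis and the pentose phosphate pathway 7 rose and 1 fell. Pfkfb3, which makes the activator of phosphofructokinase, rose from 7.60 to 10.83, and Hif1a, the hypoxia factor that drives glycolytic genes, from 10.07 to 12.62. The glucose transporter Slc2a1 (GLUT1) rose from 8.29 to 9.97, a rise lost with the hybridization controls as a covariate. Slc2a3 (GLUT3) stood at 10.20 to 10.92 in the M0 arrays and 5.62 to 5.74 in those of M1 on its brightest probe set and fell by 4.90 ± 0.16; on the brightest of its probe sets not ending in _x_at or _s_at the difference was -0.37 and was not called, so its probe sets disagree. Hk3, Pkm, Tpi1 and Pfkl rose by 1.29, 1.09, 1.07 and 1.80. Ldha (11.58 and 11.91) and Pgd, an enzyme of the pentose phosphate pathway (12.83 and 12.56), were not called.

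Of 21 TCA cycle genes 4 rose (19.0%, against 6.27% of all genes) and 1 fell (4.76%, against 6.41%). None of the 4 rises was called without M0 arrays 1 and 4, 1 was called without either of these alone, and none with either control covariate. Idh1 fell from 11.66 to 10.64, a fall lost without any 1 of M0 arrays 2, 3 and 5, and Mdh2, malate dehydrogenase, was at 11.72 and 11.85. None of 26 respiratory chain subunits was called at 2-fold, and their median difference was 0.41 against 0.06 over all genes. By limma's adjusted p alone 14 were higher and 3 lower, against 4022 and 3195 of all 18193 genes. For 19 of them the arrays of the groups had no overlap, against 7298 of all 18193 genes. Cox5a, a subunit of cytochrome oxidase, stood at 11.99 ± 0.10 (SD, n = 5) in M0 and 12.41 ± 0.11 (SD, n = 3) in M1. Cyc1, cytochrome c1, was at 9.72 and 10.68.

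Lipid genes moved in several directions. Of 29 genes of fatty acid uptake, storage and oxidation 5 rose (17.2%, against 6.27% of all genes) and 6 fell (20.7%, against 6.41%). Hilpda, an inhibitor of fat breakdown in lipid droplets, rose from 7.66 to 10.56. Pparg, the nuclear receptor that drives lipid uptake, fell from 7.09 to 4.60, lipoprotein lipase (Lpl) from 12.93 to 10.74, and the triglyceride enzyme Dgat1 from 9.48 to 7.79. Cd36, a fatty acid and scavenger receptor, rose from 11.59 to 12.91; its call was lost without M0 arrays 1 and 4 and its difference was -0.72 (adjusted p = 0.075) with the hybridization controls as a covariate. The carrier Fabp5, at 13.51 and 13.24, and Plin2, which coats lipid droplets, at 12.86 and 12.97, were not called.

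Cholesterol synthesis fell in 4 of 19 genes and rose in none. Cyp51, Fdft1, Idi1 and Sqle fell from 7.48, 7.76, 8.22 and 7.75 to 5.79, 6.09, 6.64 and 6.31. Hmgcs1 was at 9.63 and 8.84. Without M0 arrays 1 and 4 the falls numbered 7, and with the mean of all probe sets of a gene 2. Among 17 genes of the LXR pathway and cholesterol efflux 3 rose and 2 fell. Neither fall was called with the mean of probe sets or without probe sets ending in _x_at or _s_at. Nr1h3 (LXR alpha) rose from 7.04 to 9.28, Tspo, which moves cholesterol into mitochondria, from 10.72 to 12.20, and the efflux pump Abca1 from 10.04 to 11.80, the last lost with either control covariate. Apoe, at 13.85 and 13.76, was not called.

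Of 20 genes of eicosanoid synthesis and response 5 rose, among them genes of prostaglandin E2 synthesis, and 6 fell, among them genes of the lipoxygenase pathway. Pla2g4a, the cytosolic phospholipase that frees arachidonic acid, stood at 7.89, 8.66, 8.36, 7.36 and 9.25 in M0 and at 11.16, 11.34 and 11.45 in M1. Ptgs2 (COX-2), which makes prostaglandin H2 from it, stood at 5.95 to 6.90 in the M0 arrays and 11.64 to 11.93 in those of M1 and rose by 5.32 ± 0.23. Ptges, which turns prostaglandin H2 into prostaglandin E2, stood at 5.60, 5.60, 5.41, 5.75 and 5.32 in M0 and at 11.44, 11.37 and 11.32 in M1, and rose by 5.84 ± 0.10, which is 57.1-fold. Each of these genes was higher in every M1 array than in any M0 array.

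The enzyme that ends the same pathway and the competing enzymes fell. Hpgd fell by 6.43 ± 0.33, as given above. Alox5 (5-lipoxygenase), its activating protein Alox5ap and Lta4h, which makes leukotriene B4, fell from 7.90, 12.22 and 11.41 to 5.35, 10.55 and 9.57, and the receptor of leukotriene B4, Ltb4r1, from 8.15 to 6.43. Alox15, the 12/15-lipoxygenase that eosinophils and IL-4-treated macrophages carry, stood at 10.03, 7.84, 8.37, 8.30 and 9.20 in M0 and at 3.78, 3.54 and 3.31 in M1. In M2a it was also below every M0 array, at 4.79 to 5.37. The M0 arrays with the highest Alox15, 1 and 5, were also those with the highest mean of the eosinophil, basophil and mast cell list, 7.90 and 7.18, and the part of such cells in its fall was not tested. The fall of Lta4h was lost with the mean of probe sets and in the fit with the hybridization covariate. Ptger2, a receptor of prostaglandin E2, was called higher (7.73 to 8.92), a call lost without M0 array 4, and Ptger3 lower (4.26 to 2.61). Tbxas1, the thromboxane synthase, at 8.91 and 9.13, was not called.

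**Figure D4:**
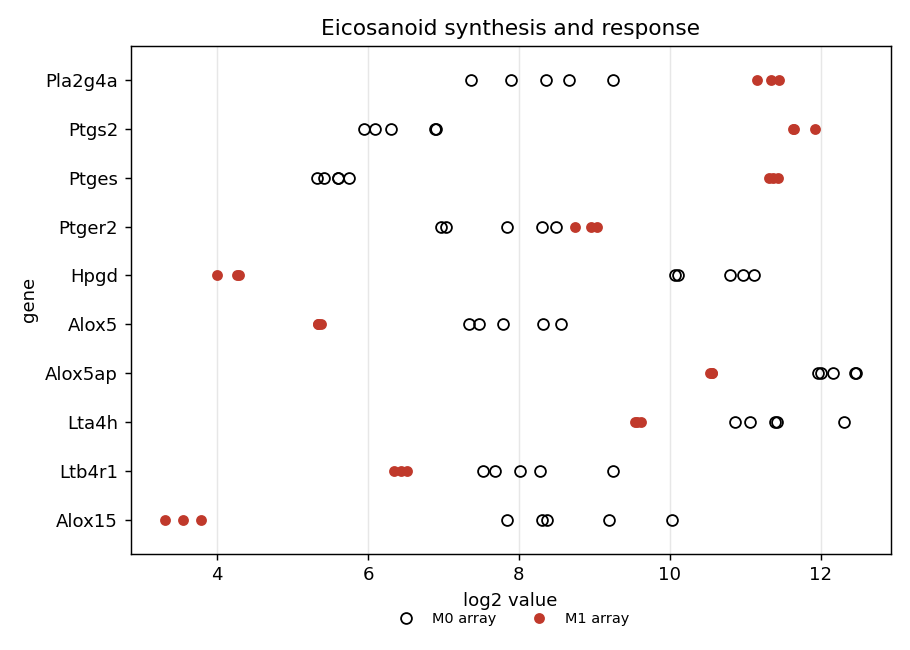
Log2 value of 10 genes of eicosanoid synthesis and response in each array, with M0 arrays as open circles and M1 arrays as filled red circles, ordered from phospholipase and prostaglandin genes (top) to lipoxygenase and leukotriene genes (bottom). Pla2g4a, Ptgs2 and Ptges are higher in every M1 array and Hpgd, Alox5, Alox5ap, Lta4h, Alox15 and Ltb4r1 lower, without overlap; Ptges runs from 5.32 to 5.75 in M0 and from 11.32 to 11.44 in M1.

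Oxidant and antioxidant genes rose in 6 of 25 cases and 1 fell. Hmox1, which breaks down heme, rose from 10.08 ± 0.63 (SD, n = 5) to 13.61 ± 0.06 (SD, n = 3), the mitochondrial superoxide dismutase Sod2 from 9.74 ± 0.34 to 13.10 ± 0.04, and the cystine importer Slc7a11 from 6.86 to 9.57. Cybb, the catalytic subunit of the phagocyte oxidase, rose from 12.16 to 13.56, while its partner Cyba (12.46 and 13.24) and the cytosolic subunit Ncf1 (11.96 and 11.24) were not called. Gpx3, an extracellular peroxidase, fell from 10.02 to 7.87. The NRF2 target Nqo1 was at 7.06 and 6.29 and Nfe2l2 (NRF2) at 10.28 and 10.71.

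Of 23 genes of iron and heme handling 7 rose and 5 fell. Tfrc, the transferrin receptor, stood at 9.88, 10.50, 10.51, 10.06 and 10.54 in M0 and at 7.09, 6.80 and 6.94 in M1, with no overlap, and fell by 3.35 ± 0.16. Cp, the ferroxidase ceruloplasmin, rose from 5.07 to 5.51 in M0 to 10.23 to 10.27 in M1, a rise of 4.94 ± 0.10. Slc48a1, which moves heme out of the phagosome, rose from 10.22 to 12.56, Slc11a1, the metal pump that starves phagosomal microbes of iron, from 10.84 to 12.31, and Spic, a factor of red pulp macrophages, from 7.76 to 10.39. Slc40a1, the iron exporter ferroportin, fell from 11.98 to 10.69, a call lost without M1 array 1 or 2, and Slc39a8, a metal importer, from 5.22 to 3.35. The ferritin chain Fth1 was at 14.10 and 14.41.

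Scavenger receptors split, with 5 of 18 higher and 8 lower. Marco led the rises, and Scarf1 and Msr1 rose from 6.90 and 9.19 to 9.44 and 11.25. The call of Msr1 was lost with the hybridization controls as a covariate, under which 3 of the 18 rose. Cd5l, a secreted member of the same domain family, fell from 11.49 to 6.15, the mannose receptor Mrc1 from 9.34 to 4.49, and the hemoglobin receptor Cd163 from 4.84 to 3.40. Mrc1 stood at 8.51, 9.98, 9.55, 8.41 and 10.28 in M0 and at 4.37, 4.37 and 4.74 in M1, against a mean of 10.12 in M2a, and M1 was lower than M2a by 5.62 ± 0.43 (adjusted p = 1.2e-06). Cd68, at 12.41 and 12.77, was not called.

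Of 20 C-type lectin genes 7 rose and 6 fell. Clec4e (Mincle) and Clec4n (Dectin-2), which sense mycobacterial and fungal glycolipids and mannans and couple to the Fc receptor gamma chain, rose from 8.69 and 9.88 to 13.08 and 13.05. Cd69 and Ly75 (DEC-205) rose from 4.01 and 4.47 to 7.57 and 7.22. Clec4b1 fell from 7.98 to 4.89, Clec1b (CLEC-2), which platelets also carry, from 8.05 to 5.41, and the galactose lectins Clec10a and Mgl2 from 8.80 and 5.79 to 6.34 and 4.35, the last lost with the hybridization controls as a covariate. Clec4d was at 12.56 and 13.11 and Clec7a (Dectin-1) at 12.24 and 12.45.

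Receptors for dying cells and their bridging proteins did not move together. Of 21 genes 3 rose and 6 fell. Mertk, a receptor kinase for apoptotic cells, stood at 8.19 to 9.75 in the M0 arrays and 11.23 to 11.28 in those of M1 and rose by 2.14 ± 0.32, a call lost with the hybridization controls as a covariate. Its bridging ligand Gas6 stood at 8.80, 10.42, 10.48, 9.62 and 10.18 in M0 and at 5.80, 6.10 and 5.89 in M1 and fell by 3.97 ± 0.32. The integrin chains Itgb3 and Itgb5, which bind the bridging protein Mfge8, fell from 8.39 and 10.73 to 4.90 and 8.76, and Mfge8 itself from 9.07 to 6.68. Axl, a further receptor kinase, was at 9.34 and 9.59, and Thbs1 was called higher, from 10.90 to 12.11, with overlapping arrays and a call lost in most alternatives. Tyrobp (DAP12), at 13.32 and 13.17, was not called.

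Of 19 complement genes 5 rose and 5 fell. Cfb led, and the proteases C1ra and C1s1 rose from 5.79 and 4.05 to 9.82 and 7.12. Their inhibitor Serping1 rose from 4.70 to 6.29, lost with the hybridization controls as a covariate. Vsig4, a complement receptor of tissue macrophages, fell from 6.69 to 4.58, and Cd55 and Cd59a, which protect cells from complement, from 4.69 and 7.16 to 3.09 and 5.76. The complement receptor chain Itgam fell from 8.66 to 7.17, while its partner Itgb2 was at 11.98 and 12.81. C1qb, a chain of the C1q that starts the classical pathway, was at 12.27 and 12.83 and was not called.

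Among 19 Fc receptor and ITAM genes 5 rose and 4 fell. Fcgr1 and Fcgr4, activating IgG receptors, rose from 8.82 and 9.74 to 11.22 and 11.60, and both calls were lost with the hybridization controls as a covariate. Fcrls fell from 7.28 to 5.08 and Treml2 from 8.04 to 6.16. Fcgr3, at 12.21 and 11.23, and Fcer1g, the common gamma chain, at 12.64 and 13.57, stood on either side with less than the fold minimum.

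Of 32 cathepsins and lysosomal hydrolases 5 rose (15.6%, against 6.27% of all genes) and 3 fell (9.38%, against 6.41%). By limma's adjusted p alone 9 were higher and 9 lower, against 4022 and 3195 of all 18193 genes. Of 15 proton pump subunits 2 rose and 2 fell, 13.3% each way against 6.27% and 6.41% of all genes, and no rise was called without M0 arrays 1 and 4 or in the fit with the hybridization covariate. With M0 array 4 or M1 array 2 left out 1 of the pump subunits rose. Ctsc, which activates granule serine proteases, rose from 11.03 to 13.83 and Ctsh from 11.48 to 13.14. Ctsb (13.34 and 13.31) and Ctsd (13.18 and 12.99) were not called. Without M0 arrays 1 and 4, 2 cathepsin or hydrolase genes were called higher and 5 lower, and 3 were higher without either of these arrays alone. In the hybridization covariate fit 1 of the cathepsins and hydrolases was called higher and 12 lower, and in the actin fit 2 and 6. Atp6v0d2, a pump subunit of osteoclasts and fused macrophages, stood at 8.53, 10.10, 10.76, 9.46 and 10.13 in M0, 4.99, 4.69 and 5.46 in M1 and 12.37 to 12.44 in M2a; it fell by 4.75 ± 0.39 against M0, and M1 was lower than M2a by 7.35 ± 0.44.

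In a list of matrix proteases and protease inhibitors that also holds matrix proteins, coagulation factors and growth factors, 10 of 31 genes rose and 7 fell. Serpinb9, the inhibitor of granzyme B, rose from 7.25 to 12.19, and Mmp14 and Mmp2, a membrane metalloproteinase and the gelatinase it activates, from 8.33 and 6.28 to 11.20 and 9.12. Mmp8 and Mmp9, which neutrophils store in granules, fell from 11.10 and 10.06 to 7.10 and 7.47, and the macrophage elastase Mmp12 from 10.85 to 7.10. Timp2, an inhibitor of Mmp2 that also takes part in its activation, fell from 10.07 to 6.64. Igf1, at 11.47 and 10.79, was not called. In the fit with the hybridization covariate, 4 of the 31 rose.

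Integrins and tetraspanins fell in 8 of 25 cases and rose in 1. Itga6, a laminin receptor chain, stood at 8.96, 9.62, 9.65, 8.66 and 10.16 in M0 and at 4.68, 4.90 and 4.97 in M1, and fell by 4.56 ± 0.27. The tetraspanins Cd9, Tspan13 and Cd81 fell from 11.80, 9.34 and 8.61 to 8.49, 6.14 and 6.48. Itga5, a fibronectin receptor chain, rose from 5.27 to 7.00.

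Receptors for purines and metabolites and membrane carriers included sharp rises of single genes. Of 24 such receptors 6 rose and 3 fell. Gpr84, a receptor of medium-chain fatty acids, rose from 6.10 ± 0.21 (SD, n = 5) to 9.83 ± 0.02 (SD, n = 3) and Gpr18 from 5.30 to 8.85, while the purine channel P2rx1 and the short-chain fatty acid receptor Ffar2 fell from 6.91 and 7.61 to 5.05 and 5.77. P2rx4 was at 10.06 and 10.58. Of 27 channels and carriers 8 rose and 2 fell. Clic5, an intracellular chloride channel protein, stood at 4.25 to 4.74 in the M0 arrays and 9.56 to 9.69 in those of M1, and Slco3a1 rose from 5.85 to 9.92 and the copper carrier Slc31a2 from 7.82 to 10.90. Slc46a3 and Slc30a4 fell by 2.23 and 1.58.

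In mitosis 25 of 33 genes fell and none rose, with a median difference of -1.68 against 0.06 over all genes. Ube2c, which serves the anaphase-promoting complex, fell from 9.56 ± 0.29 (SD, n = 5) to 5.11 ± 0.12 (SD, n = 3), Birc5 (survivin) from 8.58 ± 0.43 to 4.67 ± 0.16, Top2a from 9.71 to 6.52 and Mki67, the proliferation antigen, from 10.22 to 7.77. In S phase 15 of 33 genes fell and none rose. Rrm2, the ribonucleotide reductase subunit made in S phase, stood at 9.41, 9.25, 8.66, 9.09 and 9.12 in M0 and at 4.08, 4.50 and 4.32 in M1, and the helicase subunit Mcm7 fell from 10.37 to 6.89. Pcna stood apart, at 11.89 and 11.80, as did Mcm2 (8.94 and 8.40) and Mcm4 (8.56 and 8.20), none of which was called. In M2a, Birc5, Mki67 and Mcm7 averaged 5.63, 6.63 and 7.95, also lower than in M0, while Pcna averaged 12.25. M0 also had the higher level of the progenitor list, at 6.74 to 7.51 against 5.08 to 5.18 in M1 and 5.72 to 5.83 in M2a. The part of such cells in the falls was not tested.

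Among 30 cyclins, kinases and inhibitors 4 rose and 10 fell. Cdkn1a (p21), an inhibitor of cell cycle kinases, rose from 8.78 to 11.27, and Ccne1 (cyclin E1) rose from 6.48 ± 0.09 (SD, n = 5) to 8.06 ± 0.09 (SD, n = 3) while its paralog Ccne2 fell from 5.84 to 3.51. E2f2 fell from 7.90 to 4.43 and the antiproliferative Btg2 from 10.45 to 7.67. Btg1, its paralog, was at 11.73 and 12.22. Without M0 arrays 1 and 4, 2 of the 30 rose.

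Transcription factors of the myeloid lineage fell more often than they rose. Of 37 genes 5 rose (13.5%, against 6.27% of all genes) and 9 fell (24.3%, against 6.41%). Myb stood at 11.31, 9.41, 8.68, 10.04 and 9.55 in M0 and at 3.82, 3.39 and 3.57 in M1. Gfi1, a factor of granulocyte precursors, fell from 8.09 to 5.13. M0 array 1 was highest in both and in the primary granule list, of which Gfi1 is itself a member. The part of granulocyte precursors in these falls was not tested. The inhibitors of differentiation Id3 and Id1, Egr1, Klf2 and Myc fell from 10.39, 9.18, 10.57, 8.02 and 8.01 to 8.05, 7.44, 8.43, 6.39 and 6.45. Prdm1 (BLIMP-1) and Klf4 rose from 6.56 and 7.74 to 8.18 and 9.14, and the call of Prdm1 was lost with either control covariate. Spi1 (PU.1), which defines the lineage, was at 9.37 and 10.06, and Maf and Zeb2 were at 11.27 and 10.98 in M0 and 11.09 and 11.47 in M1. Without M0 arrays 1 and 4, or without either alone, 3 of the 37 rose.

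None of 29 ribosome biogenesis genes was called at 2-fold, with a median difference of -0.09. By limma's adjusted p alone 6 were higher and 9 lower, against 4022 and 3195 of all 18193 genes. In the fit with the hybridization covariate 9 were called lower. Of 18 aminoacyl-tRNA synthetases 1 rose, Wars, which interferon-gamma is known to induce, from 7.42 to 8.67. Npm1 was at 10.75 and 10.37 and Rars at 9.19 and 9.79. Targets of ATF4, the factor of amino acid shortage, split: of 23, 4 rose and 7 fell. Nupr1 and Slc7a11 rose from 6.65 and 6.86 to 10.90 and 9.57, whereas the serine enzyme Psat1, the asparagine enzyme Asns and the amino acid carrier Slc38a2 fell from 8.51, 8.47 and 10.17 to 5.94, 6.66 and 7.82. Atf4 itself was at 11.02 and 10.86.

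Heat shock and endoplasmic reticulum chaperones rose in 6 of 30 cases, and 1 fell. Hspa1b and Hspa1a, near-identical genes of the inducible HSP70 whose probe sets may share transcripts, rose from 5.74 and 4.80 to 9.68 and 8.05. Creld2 and Manf, secreted in endoplasmic reticulum stress, rose from 7.72 and 10.13 to 10.11 and 11.54, both lost with the hybridization controls as a covariate, under which 2 of the 30 rose. Hspa8 was at 12.36 and 13.13. In autophagy 2 of 24 genes rose and 2 fell, 8.33% each way, near the 6.27% and 6.41% of all genes. Bnip3, a mitophagy receptor, rose from 8.51 to 10.25 and the cargo receptor Sqstm1 (p62) from 10.95 to 12.53, and Pink1, the kinase that marks damaged mitochondria, and Map1lc3b fell from 8.56 and 11.57 to 6.54 and 10.50. Gabarap was at 11.74 and 12.01.

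**Figure D5:**
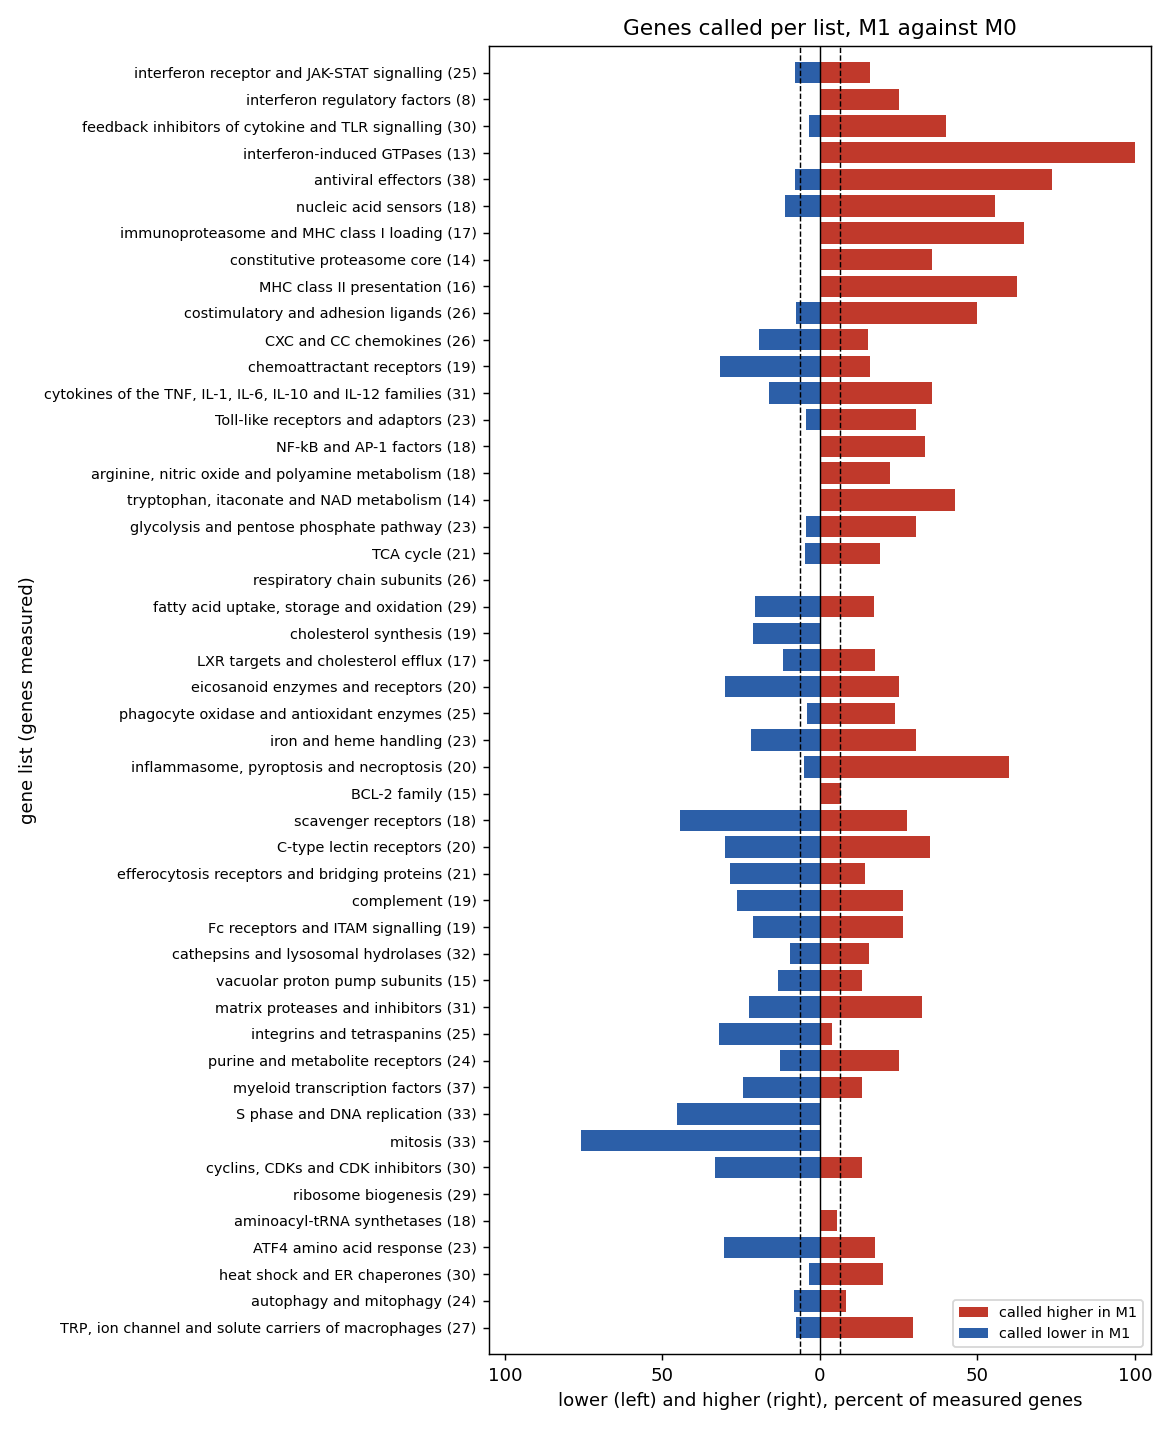
Percent of the measured genes of each of 48 gene lists that were called higher (red, to the right) or lower (blue, to the left) in M1 against M0, with the number of measured genes beside each name; the dashed lines mark 6.27% higher and 6.41% lower, the shares over all 18193 genes. Interferon-induced GTPases (13 of 13) and antiviral effectors (28 of 38) have the highest shares of rises and mitosis (25 of 33) the highest share of falls.

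The counts of several further lists also moved in the fit with the hybridization covariate. Rises numbered 7 and not 12 for inflammasome, pyroptosis and necroptosis genes and 4 and not 10 for the matrix protease list. Iron and heme genes had 4 and not 7 rises. Fc receptor genes and fatty acid genes each had 2 and not 5. Falls numbered 8 and not 5 for chemokines, 9 and not 4 for cholesterol synthesis, 10 and not 6 for efferocytosis, 10 and not 6 for fatty acid genes, 10 and not 5 for iron and heme genes and 5 and not 1 for feedback inhibitors. The TCA cycle genes went from 1 fall to 5 and the autophagy genes from 2 to 6.

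Several falls in M1 were set apart from the other cytokine state by a direct test. The contrast of M1 with M2a in the same limma fit, in which the M0 level does not enter, is given for genes chosen after their values were seen. Rgs18 was lower in M1 than in M2a by 5.41 ± 0.22 (adjusted p = 6e-09), Ccl6 by 4.80 ± 0.11 (adjusted p = 9e-11), Itga6 by 4.60 ± 0.31 (adjusted p = 4e-07), Tfrc by 3.66 ± 0.18 (adjusted p = 2.8e-08), Socs2 by 4.03 ± 0.25 (adjusted p = 2e-07) and Pparg by 3.76 ± 0.43 (adjusted p = 4.3e-05). Bex1 was lower by 10.23 ± 0.57. For other falls the same contrast gave no call: Hpgd differed between M1 and M2a by -0.68 ± 0.37 (adjusted p = 0.20), Gas6 by -0.78 ± 0.36 (adjusted p = 0.13) and Alox5 by -0.50 ± 0.27 (adjusted p = 0.20), which does not show that these levels are alike. The rises of Slc7a2, Slamf8 and Procr had lower counterparts in M2a, where the arrays stood at 9.39 to 9.67, 9.29 to 9.65 and 8.60 to 9.19, and M1 exceeded M2a by 1.31 ± 0.40 (adjusted p = 0.027), 2.54 ± 0.39 (adjusted p = 0.0004) and 3.94 ± 0.37 (adjusted p = 7.6e-06).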

How the data were processed

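Total RNA of 11 sorted macrophage samples was measured on Affymetrix mouse expression arrays. The deposited log2 values, 1 per probe set and array, were made by the authors with Partek, per the submitters' processing notes. How background was corrected and probes were summarized and normalized is not stated there, and no further scaling was applied. Of 45101 probe sets, 34945 carried exactly 1 gene symbol, and for each of 18193 genes the one with the highest mean over the 11 arrays was kept. Groups follow the sample titles. A mean per group was fitted over all 11 arrays with limma 3.58.1 in R 4.3.3, tested on simulated data, and M1 was compared with M0 with Benjamini-Hochberg adjustment over the 18193 genes. Genes were named as the 15 largest rises and falls, the leading called members of each of 48 pathway and 14 marker lists, an abundant member not called, and further members where a pathway step is described. The members and lists were chosen with earlier results of these data known. Of 1309 list genes 1182 were measured. The number of arrays limits the precision. Alternatives covered normalization, arrays left out, probe set choice, low values, controls as covariates, a replicate block and the call rule.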

Additional observations from a re-analysis of the deposited data

Results flagged for a closer look

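Probe sets that the gene table does not name were outside the comparison, and some of them differed between the groups. Of 9160 such probe sets tested in the same way, 272 were called higher in M1 and 855 lower, 12.3% in all. Of the singly named genes 12.7% were called, 6.27% higher and 6.41% lower. The largest rises among the unnamed probe sets were 7.38, 6.75 and 6.63. These exceeded the rise of Rasgrp1 (5.95), which is listed above among the leading rises. The leading rises given above therefore cover singly named genes only. No gene is named here for them, and no control samples other than M0 exist to set them against.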

How the results depend on the processing

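The counts of 1140 higher and 1166 lower genes were recomputed under 25 alternatives. Without a fold minimum 7217 genes passed (4022 higher, 3195 lower). With the actin difference as a covariate 706 were higher, with the hybridization controls 2111 were lower, and among genes above the median gene, where fewer were tested, 715 were lower; for the covariates the cause was not tested. Leaving out 1 array at a time gave 2114 to 2620 called genes, 954 to 1412 higher and 1139 to 1208 lower. The replicate block gave 1157 higher and 1167 lower; the deviations of same-numbered M0 and M1 arrays correlated at 0.248, 0.04 and 0.168, so the numbers were not taken to pair the arrays. Of the named genes that were called, 244 of 307 kept the call in every alternative that tested them. Not all were tested in each: 268 of the 307 were among the genes above the median gene. Some also had no probe set left without those ending in _x_at or _s_at. With the hybridization controls as a covariate the differences of some named genes changed sign: Abca1 -0.55, C3ar1 -1.7, Ccl2 -1.97, Cd36 -0.72, Jak1 -1.05, Jun -1.42, Ly96 -0.65, Prdm1 -0.44, Ptger2 -0.54, Thbs1 -0.09, Tlr3 -0.14, Tlr4 -1.72, Tlr7 -1.22 and Treml4 -0.57. With the actin difference that of Thbs1 was -0.26. The cause was not tested.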

Other observations

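Outside the gene lists, and chosen after their values were seen, further genes rose by more than 4 on the log2 scale. Calhm6, a channel-like protein, rose from 6.70 to 12.17, Cd1d1, which presents lipids to NKT cells, from 7.40 to 12.12, and Met, the receptor of hepatocyte growth factor, from 5.70 to 10.35. Pdpn (podoplanin) rose from 5.95 to 10.52 and Jag1, a Notch ligand, from 6.22 to 10.41. Upp1, which splits uridine, rose from 5.05 to 10.29 and Saa1, an acute-phase protein like Saa3, from 2.80 to 7.71.

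Genes with falls of similar size, chosen in the same way, included calcium-binding proteins. S100a4 fell from 11.31 to 5.85 and S100a6 from 11.61 to 6.77, while in M2a they stood at 11.03 and 10.81. Anxa1, annexin A1, fell from 11.85 to 6.49 and Chil3, a chitinase-like protein of IL-4-treated macrophages and neutrophils, from 12.87 to 7.66, against 13.11 and 13.54 in M2a. Cd177 and Padi4, which neutrophils express, fell from 8.77 and 8.53 to 3.35 and 3.29, with the granule genes described above.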
